A study of Bos taurus with 19 samples.

Results

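The genes described here encode lysosomal enzymes and lysosomal membrane proteins. They were 38 genes chosen by name: 10 cathepsins, 3 other hydrolases, 8 glycosidases, 3 sulfatases, 7 lipid-degrading enzymes or their helpers, 4 membrane proteins and 3 subunits of the proton pump. A gene was measured by the brightest of its probe sets that carry its symbol alone, and 36 of the 38 had such a probe set, out of 9156 genes named in this way on the array. GLA and GM2A had none. The 36 genes had 52 probe sets in all, and 7 of them had more than 1.

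The lysosome is the acidic compartment in which cells break down material taken up from outside and worn parts of their own. Cathepsins cleave proteins, glycosidases and sulfatases take apart the sugar chains of glycoproteins, glycolipids and matrix, and a further set of enzymes degrades lipids and cholesteryl esters, while a proton pump in the membrane keeps the lumen acid. Macrophages, which take up dying cells and debris, are rich in lysosomes, and they are known to enter follicles that regress by atresia.

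The study measured RNA of the theca interna, the inner layer of the follicle wall that holds androgen-producing cells, vessels and fibroblasts, in ovaries of non-pregnant Bos taurus heifers from an abattoir. Each of the 19 arrays held the RNA of 1 follicle: 5 small healthy follicles whose basal granulosa cells were rounded, 5 small healthy follicles whose basal granulosa cells were columnar, 4 large healthy follicles and 5 small atretic follicles. Small follicles were 3 to 5 mm in diameter and large ones over 9 mm, and follicles were classed as healthy or atretic on histology of the membrana granulosa. The sources used here do not say that each follicle came from a different animal, so p-values measure the spread between these follicles. No animal was treated. The rounded and the columnar follicles together form the small healthy group of 10 arrays.

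The sample records name a different RNA kit for the large, the small healthy and the small atretic follicles. They give 250 ng of RNA for the atretic follicles where the healthy ones have 2 to 5 µg. The methods of the study describe 1 procedure, but they take only healthy follicles forward to analysis. Preparation and follicle group therefore cannot be told apart. The mean log2 signal of 7 theca endocrine markers lay between 7.63 and 8.97 on the small healthy arrays, between 7.96 and 9.46 on the large and between 6.41 and 8.71 on the atretic arrays, and 9 granulosa markers lay between 4.10 and 6.74 over all arrays, so the tissue carried the markers of theca and some granulosa signal. Poly-A control transcripts, which are added to the RNA before labelling, were brighter by 1.16 log2 units on the large arrays than on the small healthy ones (exact permutation test, two-sided, p = 0.000999, the smallest the 1001 splits can give). In the atretic arrays that difference was 0.18 (exact permutation p = 0.159), and the hybridization controls were brighter by 0.19 (exact permutation p = 0.0260). Differences between groups are in log2 units of signal, so 1 unit is a 2-fold change, and a probe set passed at an adjusted p under 0.05 in limma. All comparisons with small healthy follicles share the same 10 arrays. A lower signal in a piece of tissue cannot tell fewer cells of a type from less RNA per cell.

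In the theca of small atretic follicles, 20 of the 35 lysosomal genes tested were higher than in small healthy follicles and 1, ARSB, was lower. The median difference was 0.66 for the cathepsins, 0.75 for the sulfatases (3 genes at 0.75, 0.76 and -0.76, with a mean of 0.25), 0.55 for the lipid-handling proteins, 0.39 for the membrane proteins, 0.32 for the glycosidases, 0.26 for the other hydrolases and 0.01 for the pump, and 4 genes rose at least 2-fold: CTSB, ACP5, CTSF and CTSZ. Over all 15470 probe sets tested, 16.9% were higher and 15.1% lower, and with the demand of at least 2-fold 2.08% were higher and 1.6% lower. The median difference over the 35 genes was 0.42, and over all probe sets it was 0.01. CTSL was below the signal filter in this comparison. Beside these differences, all 14 macrophage markers tested were higher in atretic follicles, by 0.70 (FCER1G) to 2.70 (CD68). All 5 lymphocyte and pan-leukocyte markers tested were higher as well. Of the macrophage markers, SLC11A1 met the signal filter only through the atretic arrays (mean 3.68, against 2.64 on rounded and 2.46 on columnar arrays). So did at least 1 of the 5 lymphocyte and pan-leukocyte markers, since 4 were tested in large against small healthy follicles. Such calls rest on the values that let the markers in, and no conclusion is drawn from them. Of 7 theca endocrine markers 1 was lower, and of 5 granulosa markers tested 2 were lower. Among smooth muscle markers 2 of 5 tested were higher, among endothelial markers 1 of 7 and among fibroblast markers 1 of 7, and none was lower. The part of the lymphocyte, theca, granulosa, smooth muscle, endothelial and fibroblast markers in the lysosomal differences was not tested.

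**Figure D1:**
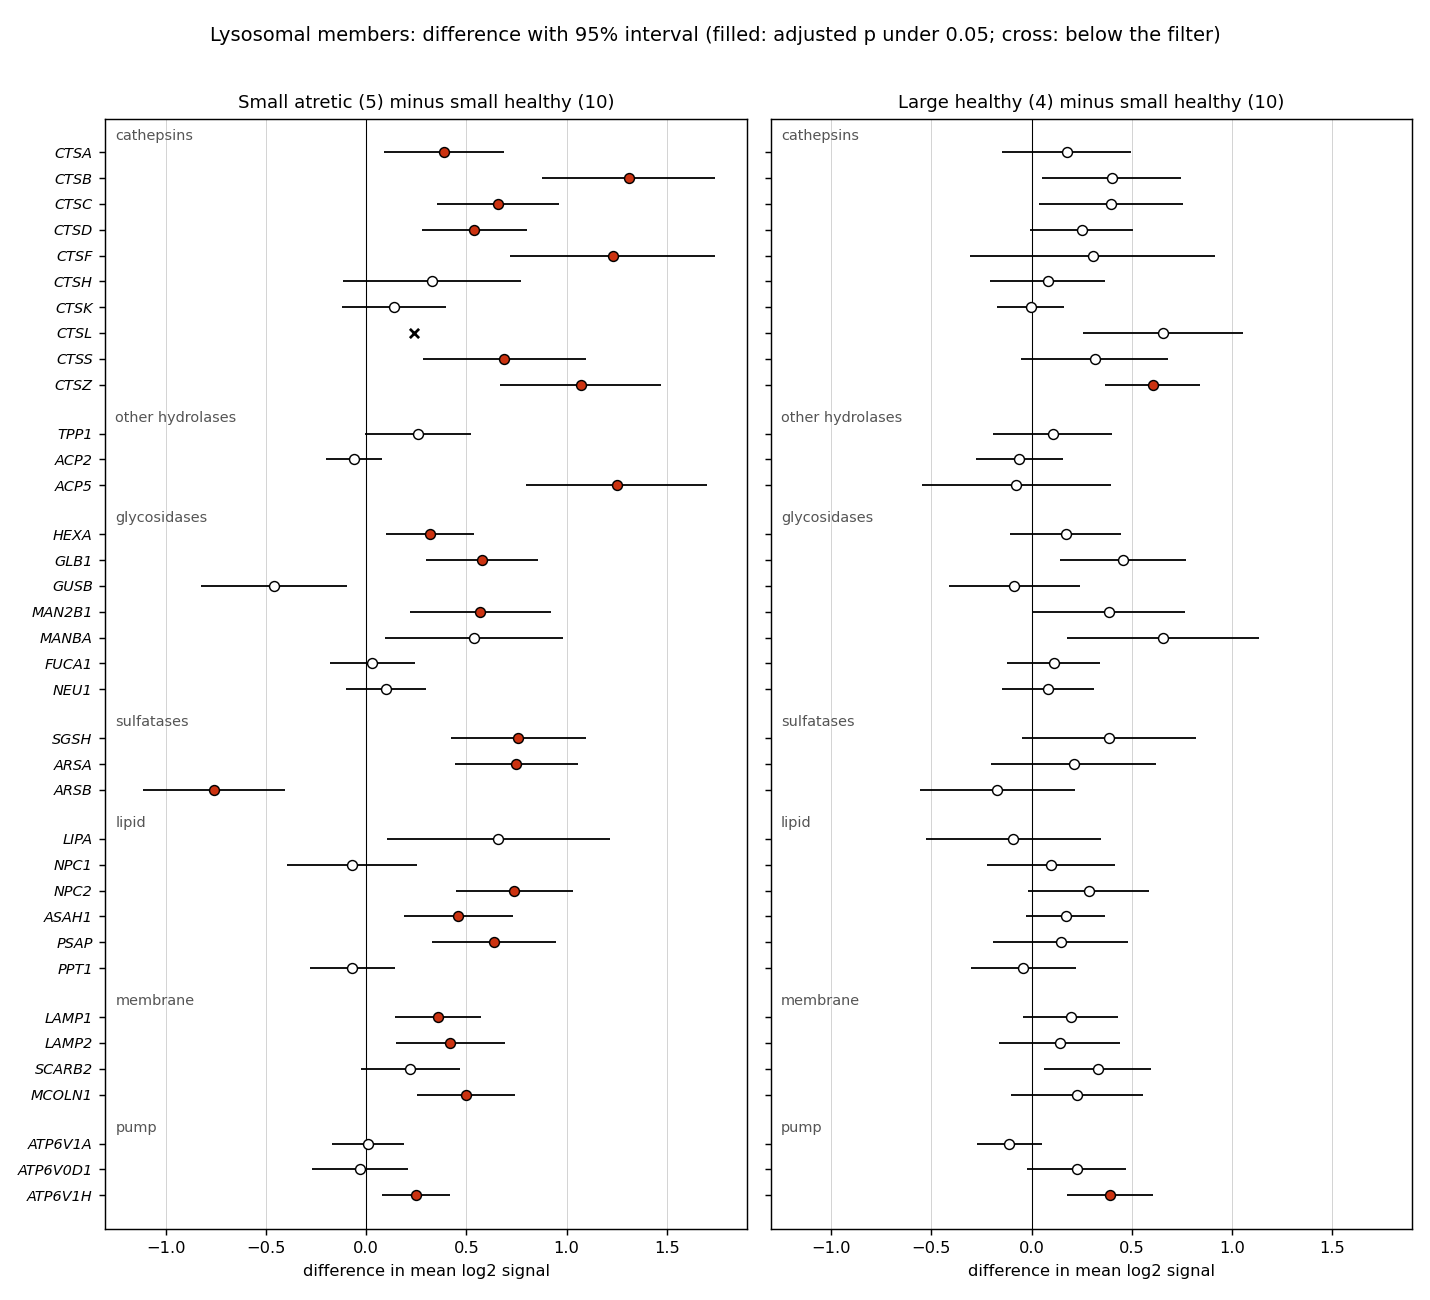
Each point is the difference in mean log2 signal between 2 follicle groups for 1 lysosomal gene, the line is its 95% interval from limma, unadjusted for the number of genes, and filled points passed at an adjusted p under 0.05. On the left 20 genes lie above 0 and pass, and ARSB passes below 0, while on the right only CTSZ and ATP6V1H pass.

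Cathepsins are the main proteases of the lysosome. Of the 9 tested, 7 were higher in atretic follicles and none lower. CTSB, a cysteine protease found in nearly all cells, read 9.9, 9.6, 8.9, 10.1 and 10.3 on the atretic arrays, and from 8.0 over a median of 8.4 to 9.2 on the small healthy ones. Only atretic replicate 3 lay within the small healthy range. The difference was 1.31 (SE 0.20), or 2.48-fold, with an adjusted p of 0.00152 in limma. CTSB had 6 probe sets, and the other 5 differed by 1.54, 1.24, 0.72, 0.26 and -0.01, so the dimmer ones did not all repeat the difference of the brightest.

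CTSZ, an exopeptidase abundant in phagocytes, read 7.9, 7.7, 7.1, 8.1 and 8.9 on the atretic arrays against 6.7 to 7.0 on all 10 small healthy arrays, with a median of 6.9. No atretic array overlapped a small healthy one, and the difference was 1.07 (SE 0.19, adjusted p = 0.00205 in limma). CTSF, another cysteine protease, stood within 0.3 units on the atretic arrays, at 7.5, 7.5, 7.2, 7.4 and 7.4, whereas the small healthy arrays spread from 5.2 over 6.05 to 7.0. Here too the groups did not overlap, and the difference was 1.23 (SE 0.24, adjusted p = 0.00328 in limma). CTSZ and CTSF were the 2 lysosomal genes with every atretic array above every small healthy array, which held for 1.42% of all probe sets, and no lysosomal gene had every atretic array below, which held for 1.67%.

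CTSF and CTSZ differed in where their spread lay. In the small healthy follicles the SD of CTSF was 0.58, above that of 95.7% of the probe sets tested, and in the atretic follicles it was 0.12. For CTSZ the SD was 0.12 in the small healthy follicles, above that of 9.40% of probe sets, and 0.65 in the atretic ones.

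The other cathepsins that passed changed less. CTSC, the dipeptidase that activates the serine proteases of immune cells, read 9.3, 9.2, 8.7, 9.1 and 8.9 in atretic follicles and 8.0 to 9.0, with a median of 8.35, in small healthy ones (difference 0.66, SE 0.14, adjusted p = 0.00522 in limma). CTSD, the main aspartic protease of the lysosome, read 8.0, 8.1, 8.1, 8.4 and 8.6 against 7.4 to 8.0, with a median of 7.7 (difference 0.54, SE 0.12, adjusted p = 0.00677). In both genes the upper small healthy arrays reached the lower atretic ones. CTSS, which trims antigens in the class II pathway of immune cells, was higher by 0.69 (SE 0.19, adjusted p = 0.0154), and CTSA, the carboxypeptidase that also protects neuraminidase and β-galactosidase, by 0.39 (SE 0.14, adjusted p = 0.0455). CTSA no longer passed when any of 10 of the 15 arrays was left out, among them atretic replicates 1, 4 and 5, with adjusted p up to 0.129.

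CTSH and CTSK did not pass. CTSH, an aminopeptidase, read 7.9, 7.0, 7.0, 8.3 and 8.3 in atretic follicles against 7.1 to 7.8 in small healthy ones, with a median of 7.25. So 3 atretic arrays lay above all small healthy arrays and the other 2 below all of them, and the mean difference of 0.33 (95% interval -0.12 to 0.78) had an adjusted p of 0.23. CTSK, the collagen-cleaving cathepsin known from osteoclasts, read 8.4 to 8.7 on all 14 healthy arrays and 8.9, 8.4, 8.6, 9.3 and 8.4 on the atretic ones (difference 0.14, 95% interval -0.12 to 0.40).

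**Figure D2:**
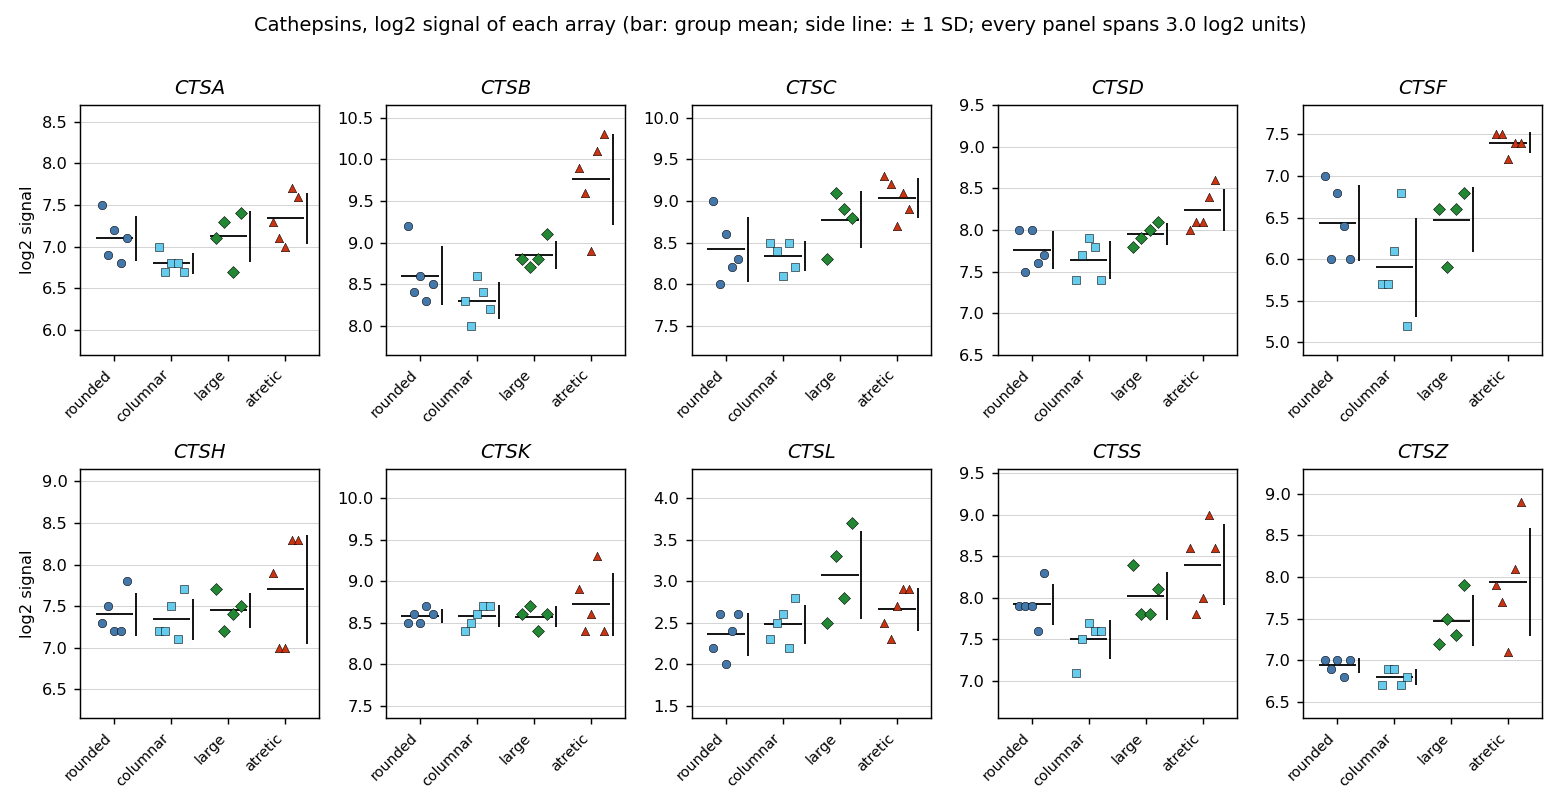
Log2 signal of each of the 10 cathepsins on every array, by follicle group, with 5 rounded, 5 columnar, 4 large and 5 atretic arrays; the bar is the group mean and the side line 1 SD on either side. The atretic triangles of CTSF and CTSZ lie above all small healthy points, those of CTSH split into 3 above and 2 below them, and the large diamonds of CTSZ lie above all small healthy points.

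Of the other hydrolases, ACP5 passed. ACP5 is the tartrate-resistant acid phosphatase of macrophages and osteoclasts. It read 7.8, 7.6, 6.9, 7.7 and 8.5 on the atretic arrays and from 5.9 over 6.5 to 6.9 on the small healthy ones, so that atretic replicate 3 equalled the highest of these and the other 4 lay above it. The difference was 1.25 (SE 0.21, adjusted p = 0.00187 in limma), and the other 2 probe sets of the gene differed by 1.68 and 0.25. TPP1, a tripeptidase, differed by 0.26 (adjusted p = 0.117), and ACP2, another acid phosphatase, by -0.06 (adjusted p = 0.487). Both were dim, with means of 3.31 and 3.53 over all arrays, close to the filter at 3. The class median of 0.26 is the value of TPP1.

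Glycosidases split the sugars off glycans from their ends. Of 7 tested, 3 were higher in atretic follicles and none lower. GLB1, the β-galactosidase whose activity is used as a mark of senescent cells, read 6.9, 6.8, 6.8, 7.2 and 6.8 in atretic follicles and 5.9 to 6.8, with a median of 6.35, in small healthy ones (difference 0.58, SE 0.13, adjusted p = 0.00642 in limma). The lowest 3 atretic arrays equalled the highest small healthy one. MAN2B1, an α-mannosidase, was higher by 0.57 (SE 0.17, adjusted p = 0.0184), and HEXA, the α chain of hexosaminidase, by 0.32 (SE 0.10, adjusted p = 0.0288). The call of MAN2B1 was lost without atretic replicate 5 (adjusted p = 0.0521), and that of HEXA without atretic replicate 1, 2 or 4 (adjusted p = 0.0576, 0.0539 and 0.0651). The β-mannosidase MANBA missed the threshold at 0.54 (SE 0.21, adjusted p = 0.0584), which it passed without rounded replicate 1 (0.65, adjusted p = 0.00797). GUSB, the β-glucuronidase, had the opposite sign: 6.9, 6.1, 6.5, 7.1 and 6.4 on atretic arrays against 6.6 to 7.5 with a median of 7.2 on small healthy ones, a difference of -0.46 (SE 0.17, adjusted p = 0.0505), which passed without any of 5 arrays, for example atretic replicate 4 (adjusted p = 0.0237). FUCA1 and NEU1, the fucosidase and the sialidase, differed by 0.03 and 0.10.

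The 3 sulfatases all passed, but not in the same direction. ARSA, which removes sulfate from sulfatide, read 4.8, 4.9, 4.4, 4.7 and 4.9 on the atretic arrays and 3.7 to 4.5 on the small healthy ones, with a median of 3.8 (difference 0.75, SE 0.14, adjusted p = 0.00298 in limma). SGSH, which acts on heparan sulfate, read 5.9, 6.1, 6.0, 5.7 and 6.3 against 4.8 to 5.7, with a median of 5.15 (difference 0.76, SE 0.16, adjusted p = 0.0044). In both genes 4 of the 5 atretic arrays lay above all small healthy arrays. ARSB, which acts on dermatan and chondroitin sulfate, read 5.4, 5.3, 5.9, 5.8 and 5.4 in atretic follicles and 5.8 to 6.8, with a median of 6.4, in small healthy ones. It was lower by 0.76 (SE 0.17, adjusted p = 0.00558), with 3 atretic arrays below all small healthy arrays.

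Among the proteins that handle lipids, 3 of 6 were higher in atretic follicles and none lower. NPC2, the soluble protein that hands cholesterol to the lysosomal membrane, read 9.3, 8.9, 8.8, 9.3 and 9.1 on the atretic arrays and 7.9 to 8.8, with a median of 8.25, on the small healthy ones (difference 0.74, SE 0.14, adjusted p = 0.00254 in limma). PSAP, the precursor of the saposins that assist sphingolipid breakdown, read 10, 9.6, 9.8, 10.2 and 10 against 8.9 to 9.9, with a median of 9.2 (difference 0.64, SE 0.15, adjusted p = 0.00647), and its other 3 probe sets differed by 0.49, 0.43 and 0.38. ASAH1, the acid ceramidase, was higher by 0.46 (SE 0.13, adjusted p = 0.0156).

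LIPA, the acid lipase that frees cholesterol from its esters, read 7.5, 6.5, 6.3, 7.8 and 7.9 in atretic follicles against 5.8 to 7.0 in small healthy ones, with a median of 6.6. It was split, with 3 atretic arrays above all small healthy arrays and 2 inside their range. The difference of 0.66 (SE 0.26) had an adjusted p of 0.0642, and it passed without atretic replicate 2 (0.0359) or replicate 3 (0.0176). NPC1, the membrane partner of NPC2, did not share its difference: it read 6.5, 7.0, 7.2, 6.4 and 6.2 against 6.4 to 7.1 (difference -0.07, 95% interval -0.39 to 0.25). PPT1, the palmitoyl thioesterase, differed by -0.07 as well (95% interval -0.28 to 0.14).

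**Figure D3:**
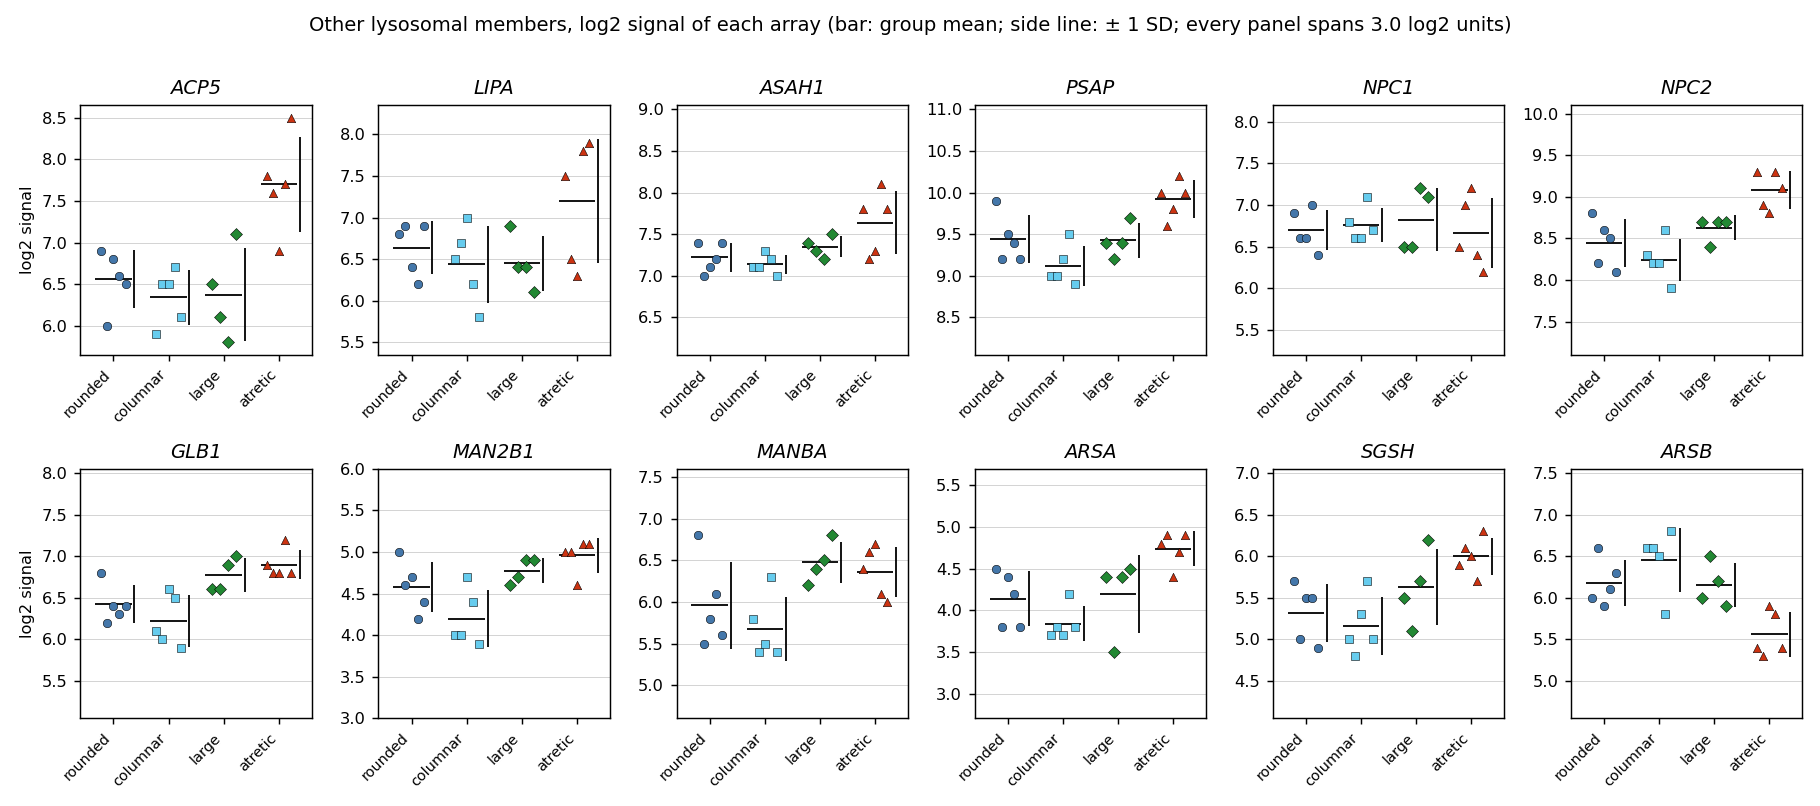
Log2 signal of 12 further lysosomal genes on every array, drawn as for the cathepsins. ARSA and SGSH lie higher and ARSB lower on the atretic arrays, LIPA splits into 3 high and 2 low atretic arrays, and NPC1 has its 2 highest atretic arrays where LIPA has its 2 lowest.

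Of the 4 membrane proteins 3 were higher in atretic follicles, and of the 3 subunits of the pump 1. LAMP1 and LAMP2, the glycoproteins that line the inner face of the lysosomal membrane, were higher by 0.36 (SE 0.10, adjusted p = 0.0158 in limma) and by 0.42 (SE 0.13, adjusted p = 0.023). MCOLN1, a calcium channel of the lysosome, was higher by 0.50 (SE 0.12, adjusted p = 0.00696), and SCARB2, the receptor that sorts β-glucocerebrosidase, differed by 0.22 (adjusted p = 0.151). The second tested probe set of LAMP1 differed by 0.08 (adjusted p = 0.682), and the calls of LAMP1 without atretic replicate 5 and of LAMP2 without replicate 1 or 4 were lost (adjusted p = 0.0516, 0.0685 and 0.0526). ATP6V1H, a regulatory subunit of the pump, was higher by 0.25 (SE 0.08, adjusted p = 0.0271), a call lost without atretic replicate 2, 4 or 5 (adjusted p = 0.0755, 0.0556 and 0.0662). ATP6V1A differed by 0.01 (95% interval -0.17 to 0.19) and ATP6V0D1 by -0.03 (95% interval -0.27 to 0.21).

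Of 65 further lysosome genes listed by name, 46 were measured and 44 tested. In atretic follicles 13 were higher (29.5%) and 3 lower, beside 16.9% higher and 15.1% lower over all probe sets. The median difference of the 44 genes was 0.10. Named after their values were seen, the highest was LGMN, an asparaginyl protease that processes cathepsins, at 0.99 (SE 0.17, adjusted p = 0.00192 in limma), and SMPD1, the acid sphingomyelinase, differed by 0.65 (adjusted p = 0.00507). All 3 lower genes encode parts of the proton pump or its partner: ATP6AP2 (-0.53, adjusted p = 0.00397), ATP6V1B2 (-0.29, adjusted p = 0.0336) and ATP6V1G1 (-0.20, adjusted p = 0.044). The pump subunits ATP6V0A1 (0.46, adjusted p = 0.024 in limma) and TCIRG1 (0.28, adjusted p = 0.0386) were higher. Calls thus went both ways, as they did over all probe sets, and no conclusion is drawn about the pump. The other pump subunits tested from this list passed in neither direction. The cystatins CST3 and CST6, inhibitors of cysteine cathepsins, were both higher, by 0.46 (adjusted p = 0.00465) and 0.48 (adjusted p = 0.024). CSTB had no probe set with its symbol alone.

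The calls for atretic follicles depended on the columnar follicles. Against the 5 rounded follicles alone the same 20 genes all kept differences above 0, with a median of 0.48 rather than 0.61, but 1 passed, CTSF (0.96, adjusted p = 0.0426 in limma), and the adjusted p of the other 19 ran from 0.0517 to 0.366. Over all probe sets that comparison called 102 (0.671%) as higher and 142 (0.934%) as lower. Against the 5 columnar follicles alone 21 lysosomal genes were higher and 1 lower, and of all probe sets 17.3% were higher and 14.8% lower.

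In the theca of large healthy follicles, 2 of the 36 lysosomal genes were higher than in small healthy follicles, CTSZ and ATP6V1H, and none was lower. Over all 15570 probe sets 2.59% were higher and 0.983% lower. None rose at least 2-fold, which held for 0.629% of probe sets as higher and 0.0771% as lower. The median difference was 0.19, against -0.005 over all probe sets, and 9 of the 36 had an unadjusted p under 0.05, as had 24.4% of all probe sets, a like share. CTSL, which met the signal filter only through the large arrays, is counted in that median and among the 9.

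CTSZ read 7.2, 7.5, 7.3 and 7.9 on the large arrays, all above the 6.7 to 7.0 of the small healthy arrays. Every large array lay above every small healthy one for 1.09% of all probe sets and below for 0.488%. The difference of CTSZ was 0.61 (SE 0.11, 1.52-fold, adjusted p = 0.0111 in limma). The call was lost in 1 fit of all follicle groups (adjusted p = 0.0931), against rounded follicles alone (0.215), without the 2 arrays highest in CYP19A1 (0.0551) and with the macrophage mean as a term (0.358). ATP6V1H read 5.6, 5.5, 5.7 and 6.0 against 5.1 to 5.5, so the lowest large array equalled the highest small one. Its difference was 0.39 (SE 0.10, adjusted p = 0.045), and the call was lost when any of 10 arrays was left out, with adjusted p up to 0.189 without large replicate 4, and with the replicate number as a block (0.0782).

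CTSL, MANBA and GLB1 came next without passing. CTSL, an endopeptidase related to CTSB, was dim, at 2.5, 3.3, 2.8 and 3.7 on the large arrays and 2.0 to 2.8 on the small healthy ones (difference 0.66, SE 0.19, adjusted p = 0.0653 in limma). CTSL met the signal filter only through the large arrays, of which 2 exceeded 3, whereas no small healthy or atretic array did. Its test therefore rests on the values that let it in, and no conclusion is drawn from it. The same holds for its call without large replicate 1 (0.85, adjusted p = 0.0182 in limma). MANBA read 6.2, 6.4, 6.5 and 6.8 against 5.4 to 6.8, and GLB1 6.6, 6.6, 6.9 and 7.0 against 5.9 to 6.8. Their differences were 0.66 (adjusted p = 0.109) and 0.46 (adjusted p = 0.0964). MANBA, GLB1 and CTSB passed without rounded replicate 1 (adjusted p = 0.0227, 0.0392 and 0.0285), which had the highest signal of the small healthy arrays for each of them. Over all probe sets the higher calls rose from 404 to 638 without that array. CTSB itself read 8.8, 8.7, 8.8 and 9.1 on the large arrays, a difference of 0.40 (adjusted p = 0.154).

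By class the median difference in large follicles was 0.31 for cathepsins, 0.17 for glycosidases, 0.21 for sulfatases, 0.12 for the lipid-handling proteins, 0.21 for membrane proteins, 0.23 for the pump and -0.06 for the other hydrolases. The cathepsin median includes CTSL, which met the filter only through the large arrays. ACP5 and LIPA, which were high on atretic arrays, had differences of -0.08 and -0.09 in large follicles (95% intervals -0.55 to 0.40 and -0.53 to 0.35). None of the 44 further lysosome genes tested passed in limma, and 9 had an unadjusted p under 0.05, no larger a share than over all probe sets. CST3 was higher by 0.59 (adjusted p = 0.0363). Beside these values, 3 of the 13 macrophage markers tested were higher in large follicles, AIF1, CYBB and MSR1. The array mean of 5 smooth muscle markers was higher by 0.87 (exact permutation p = 0.00599) and that of 8 endothelial markers by 0.48 (exact permutation p = 0.00400). The part of the poly-A controls and of these cell markers in the lysosomal differences was not tested.

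Between the columnar and the rounded small follicles no lysosomal gene passed in limma, as was true of all probe sets (0% higher and 0% lower of 15570). Of the 36 genes 2 had an unadjusted p under 0.05, as had 360 (2.31%) of all probe sets. The largest absolute difference was that of CTSF, at 5.7, 5.7, 6.1, 6.8 and 5.2 in columnar follicles and 7.0, 6.0, 6.8, 6.4 and 6.0 in rounded ones (difference -0.54, 95% interval -1.15 to 0.07). CTSS read 7.1, 7.5, 7.7, 7.6 and 7.6 in columnar and 7.9, 7.9, 7.9, 7.6 and 8.3 in rounded follicles (difference -0.42, 95% interval -0.75 to -0.09). The columnar mean was the lower in 28 of the 36 genes and the higher in 7, beside 8447 and 6117 of all 15570 probe sets. The median difference was -0.13 over the 36 genes and -0.02 over all probe sets. All 13 macrophage markers tested also had the lower mean in columnar follicles, and none of them passed.

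Whether the lysosomal genes follow macrophage markers was asked over single arrays. Of 22 macrophage markers listed, 16 were measured, and their mean log2 signal was taken per array. It ran from 3.23 to 4.39 on the small healthy arrays, from 4.01 to 4.57 on the large arrays and from 4.32 to 5.71 on the atretic arrays. The integrin ITGAM stayed at or below 1.4 on every array and MS4A7 at or below 3.3. Within the atretic follicles, replicates 1, 4 and 5 had means of 5.35, 5.59 and 5.71, and replicates 2 and 3 had 4.59 and 4.32, close to the highest small healthy and large arrays.

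The mean of the 10 cathepsins lay in nearly the same order as the macrophage mean. On the atretic arrays it was 7.78, 7.47, 7.33, 8.03 and 7.99, and on the small healthy arrays it ran from 6.86 to 7.36. Pearson's r between both means was 0.971 over the 19 arrays, 0.921 over the 10 small healthy arrays and 0.918 once the mean of each follicle group had been removed. Without the 2 arrays farthest from the median, the r of the 19 and of the 10 arrays was 0.944 and 0.850. These correlations are descriptions, with no test, over arrays that share a platform and a normalization.

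The mean of the lipid-handling proteins followed less closely, with r = 0.870 over 19 arrays, 0.653 over the small healthy arrays and 0.660 with group means removed. For the glycosidases the values were 0.573, 0.697 and 0.262. Their mean was 6.64 on rounded replicate 1, higher than on any atretic array, where it ran from 6.30 to 6.61. Sulfatases (0.621, 0.231 and 0.164) and membrane proteins (0.671, 0.506 and 0.213) lost most of the correlation once group means were removed, and the proton pump had 0.122, -0.181 and -0.217. With the lymphocyte and pan-leukocyte mean, the cathepsins had an r of 0.664, 0.216 and 0.324, with the endothelial mean 0.563, 0.470 and 0.476, and with the granulosa mean -0.565, -0.334 and -0.613.

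**Figure D4:**
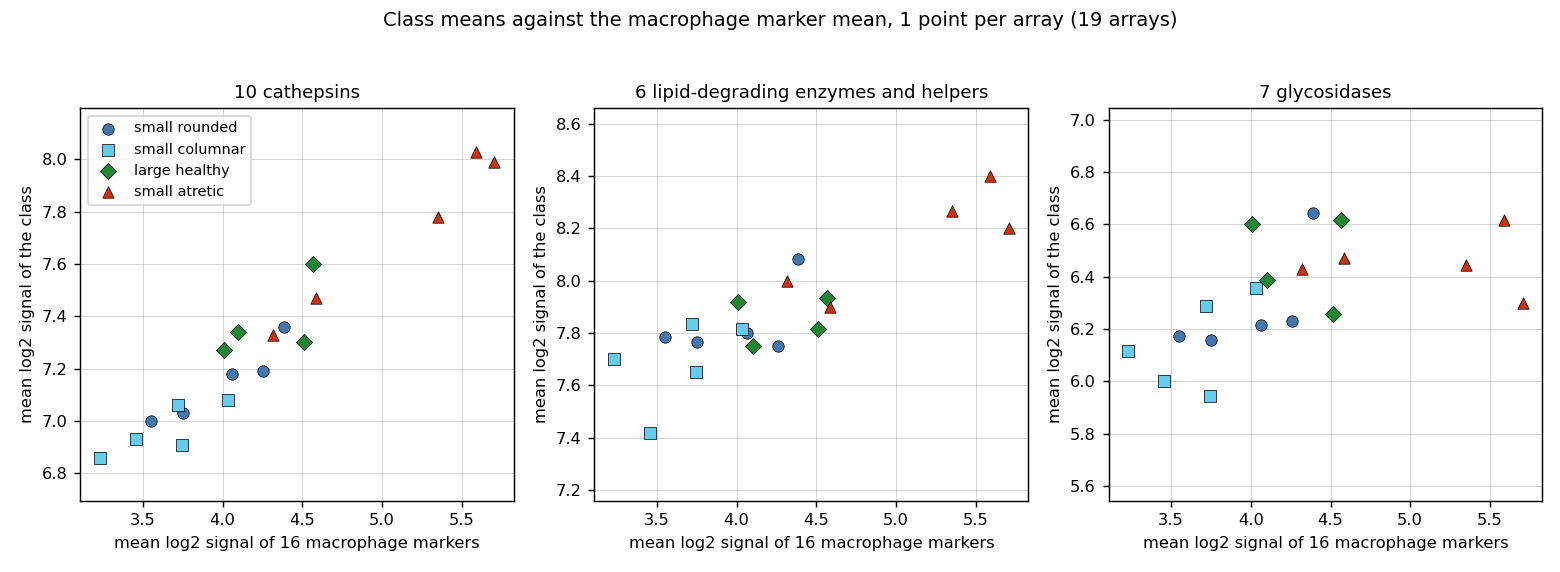
Each point is 1 of the 19 arrays, with the mean log2 signal of 16 macrophage markers on the horizontal axis and the mean of 10 cathepsins, 6 lipid-handling proteins or 7 glycosidases on the vertical axis; every vertical axis spans the same number of log2 units. The cathepsin points rise along 1 band through all follicle groups (r = 0.971), whereas the atretic arrays with the highest macrophage mean have no higher glycosidase mean than some healthy arrays (r = 0.573).

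Gene by gene, a slope on the macrophage mean was fitted in limma with follicle group in the model, so that differences between groups did not count. Of the 36 genes 5 had a positive slope that passed, and none a negative one. Over all 15708 probe sets that are no markers themselves, 0.598% had a positive and 0.0764% a negative slope that passed. CTSS had a slope of 0.67 log2 units per unit of macrophage mean (SE 0.12, adjusted p = 0.00838), CTSB 0.72 (SE 0.13, adjusted p = 0.0113), ASAH1 0.47 (SE 0.09, adjusted p = 0.0146), LIPA 0.93 (SE 0.19, adjusted p = 0.0319) and ACP5 0.84 (SE 0.18, adjusted p = 0.0355). Of the other 5 probe sets of CTSB, the second brightest had a slope of 0.88 (adjusted p = 0.00177) and the dimmer ones had 0.44, 0.30, 0.04 and 0.03 without passing, and the mean of all 6 did not pass (0.40, adjusted p = 0.284). With the replicate number as a block none of the 5 slopes passed (adjusted p from 0.0880 to 0.215). Of 30 alternatives, single arrays left out included, ACP5 lost its call in 16, LIPA in 12, CTSB in 8, ASAH1 in 5 and CTSS in 3.

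The 5 genes that passed were 2 cathepsins, 2 lipid-degrading enzymes and an acid phosphatase. CTSH (0.71, adjusted p = 0.0503) and CTSZ (0.66, adjusted p = 0.0628) missed the threshold in limma, and CTSZ passed without large replicate 1 (0.70, adjusted p = 0.0262). CTSF, which had been high on all atretic arrays, had a slope of 0.35 with a 95% interval from -0.16 to 0.85, and CTSC one of 0.11 (-0.26 to 0.48). No glycosidase, sulfatase, membrane protein or pump subunit passed: the highest slope among the glycosidases was that of MAN2B1 (0.39, 95% interval 0.11 to 0.67, adjusted p = 0.274), and those of SGSH and ARSA were 0.14 and 0.24. NPC1 had the lowest slope of all 36 genes, -0.48 (95% interval -0.80 to -0.15, adjusted p = 0.225). Of the 44 further lysosome genes, 1 passed, LGMN, with 0.67 (adjusted p = 0.00661).

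**Figure D5:**
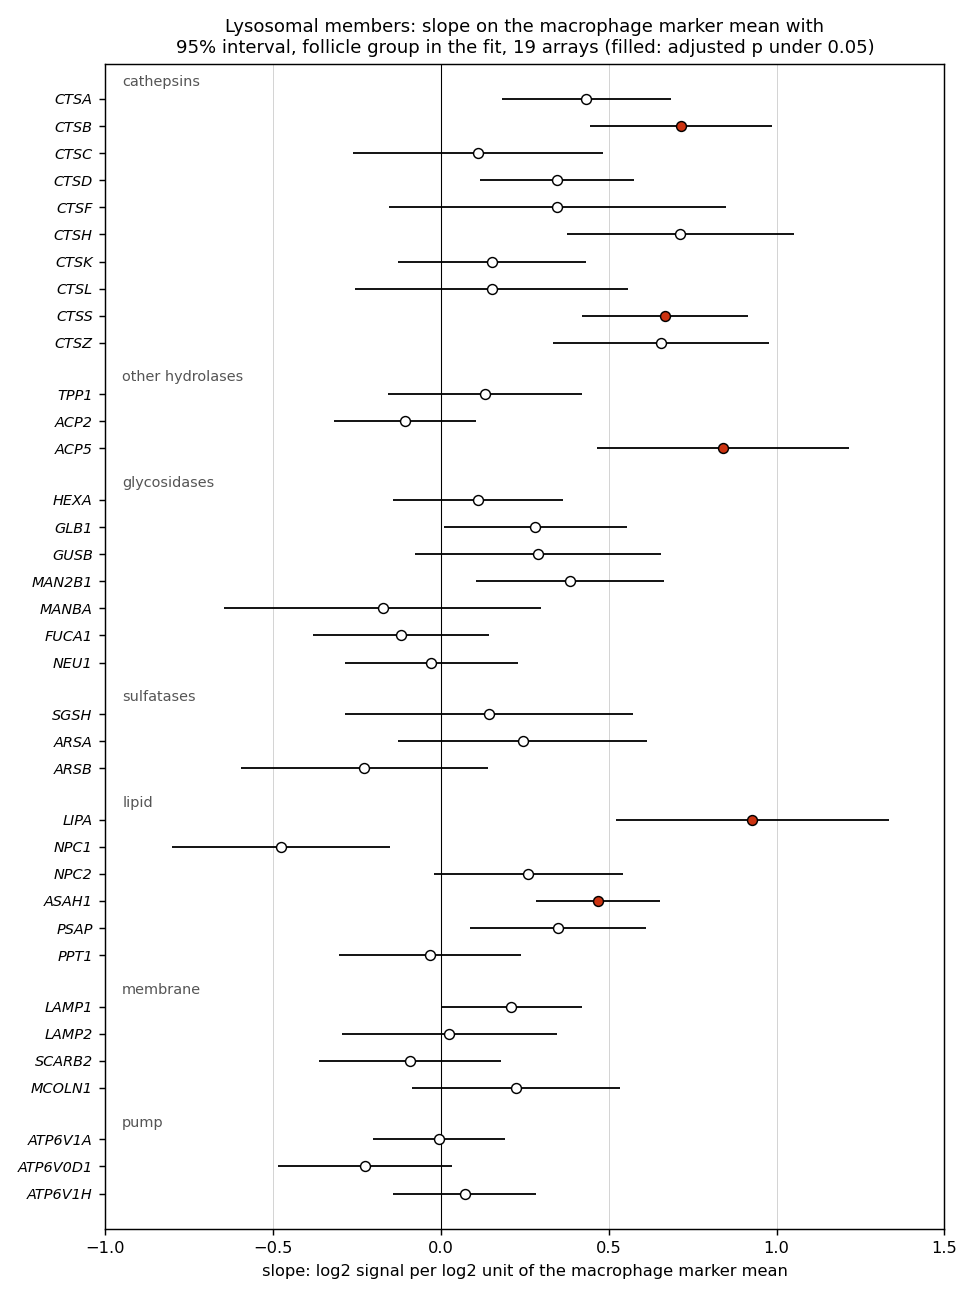
Slope of each lysosomal gene on the macrophage marker mean, in log2 units per log2 unit, with follicle group in the model of 19 arrays; lines are 95% intervals from limma, unadjusted for the number of genes, and filled points passed at an adjusted p under 0.05. CTSB, CTSS, ACP5, LIPA and ASAH1 pass. All 10 cathepsin slopes lie above 0, from 0.11 to 0.72, while those of the glycosidases run from -0.17 to 0.39 and those of the pump from -0.23 to 0.07.

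The slopes leaned on the atretic arrays, which span most of the range of the macrophage mean. The number that passed fell to 1 (CTSS) without atretic replicate 3, to 2 without replicate 5 and to 3 without replicate 1. Over all probe sets the positive slopes that passed fell from 94 to 34, 51 and 73 in the same order. Within the 10 small healthy arrays no lysosomal gene passed in limma, and 6 of 35 had an unadjusted p under 0.05, all with a positive slope, beside 366 (2.42%) of 15094 probe sets. There the 5 genes with the highest Pearson's r with the macrophage mean were CTSZ (r = 0.859, permutation p = 0.00178; Spearman's rho 0.919, permutation p = 0.000440), CTSS (0.820, p = 0.00316; rho 0.851, p = 0.00317), CTSD (0.814, p = 0.00506; rho 0.783, p = 0.0103), MAN2B1 (0.811, p = 0.00497; rho 0.826, p = 0.00526) and GLB1 (0.757, p = 0.0119; rho 0.693, p = 0.0315). Adjusted over the 15708 probe sets, these permutation p-values were 0.328 or higher. Without the 2 arrays farthest from the median the r was 0.768, 0.771, 0.668, 0.664 and 0.621.

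With the macrophage mean as a term, the difference between atretic and small healthy follicles passed for no lysosomal gene and for none of 15722 probe sets in limma. In that fit 4 of the 36 genes had an unadjusted p under 0.05, and 1062 (6.75%) of all probe sets. The median standard error of the 36 differences was 0.21 with the term and 0.13 without it, so the fit was less precise. The estimates moved unequally. CTSS went from 0.69 to -0.17, ASAH1 from 0.46 to -0.14, CTSB from 1.31 to 0.39, ACP5 from 1.25 to 0.17, LIPA from 0.66 to -0.54 and CTSH from 0.33 to -0.59. NPC1 went the other way, from -0.07 to 0.54. CTSF went from 1.23 to 0.78, CTSC from 0.66 to 0.52, SGSH from 0.76 to 0.58, LAMP2 from 0.42 to 0.39 and ARSB from -0.76 to -0.46. The median over the 36 genes went from 0.41 to 0.16.

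Among themselves the lysosomal genes formed no single block in the small healthy follicles. Over the 10 arrays the median pairwise correlation was 0.30 for all 630 pairs, 0.74 for the membrane proteins, 0.45 for the lipid-handling proteins, 0.42 for the glycosidases and 0.29 for the cathepsins, and it ranged from -0.94 to 0.95. In the sulfatases ARSA and SGSH had r = 0.84, and each had a negative one with ARSB, of which the lowest was -0.86.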

How the data were processed

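The deposited values are log2 signals, which the authors obtained from 1-colour Affymetrix bovine arrays by RMA and quantile normalization, with 1 decimal. Partek is the program, in version 6.5 per the submitters' processing notes. Arrays have no read depth; precision is set by how many there are. Symbols came from GEO's annotation of the platform: 13317 of 24127 probe sets have 1 symbol, 86 have several and 10724 none. The 36 member symbols were looked up by gene ID in a RefSeq gene table (ARS-UCD2.0), and 0 had changed. No sequences were used here.

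Groups came from the sample records. After 111 control probe sets were left out, a probe set was tested if its log2 signal exceeded 3 on 50% or more of the arrays in any follicle type. Tests were run in limma 3.58.1 (R 4.3.3), and p-values were adjusted over every tested probe set (Benjamini-Hochberg). Large and atretic follicles were each compared with the 10 small healthy ones, and columnar with rounded follicles within a model of all 3 healthy groups. Single values used exact two-sided permutation tests over arrays, and correlations 100000 permutations. The slope used all 19 arrays, with follicle group as a term. The group comparisons and the slope in limma were tested on simulated data, and the permutation tests, the correlations and the alternatives were not. Alternatives covered the filter, the moderation, the probe set of a gene, centring, single arrays, the small healthy type, the markers and a replicate block. The members and the gene lists were chosen with earlier results of these data known. Genes named are members that passed, the 12 with the smallest adjusted p by array, all cathepsins, glycosidases and lipid-handling proteins at least by a mean difference, and the 2 with the largest difference per class; others were named after their values were seen. No 2 arrays held identical values.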

Additional observations from a re-analysis of the deposited data

Results flagged for a closer look

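In 10 of 144 sets of values (1 gene in 1 follicle group) a single array stood apart from the rest of its group by Dixon's test, which chance does in about 1 of 20 sets. The log2 signal of NPC2 was 8.4 on large replicate 2 and 8.7 on the other 3 large arrays. ARSA was 3.5 on the same array and 4.4 to 4.5 on the others, and in columnar follicles it was 4.2 on replicate 4 and 3.7 to 3.8 on the others. FUCA1 was 8.3 on large replicate 1, with 8.8 to 8.9 on the others, and 8.9 on rounded replicate 1, with 8.5 to 8.6 on the others. On atretic replicate 3, MAN2B1 was 4.6 (others 5.0 to 5.1) and MCOLN1 5.6 (others 5.9 to 6.0). GLB1 was 7.2 on atretic replicate 4 (others 6.8 to 6.9), SCARB2 9.7 on atretic replicate 2 (others 9.2 to 9.3), and NEU1 4.1 on columnar replicate 2 (others 4.4 to 4.5).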

How the results depend on the processing

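With the mean in place of the median, the class value in atretic follicles moved by more than the spread between arrays for the sulfatases (0.25) and the other hydrolases (0.48); the other class medians moved by less, as did all with genes below the filter. Of 3879 single-gene values under the alternatives, 135 lost a call, 47 gained one and 4 changed sign from or to a call.

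In atretic against small healthy follicles, where 20 lysosomal genes were higher and 1 lower, the numbers were 1 and 0 against rounded follicles alone, 4 and 0 with at least 2-fold, and 0 and 0 with the macrophage mean as a term, an alternative chosen after seeing the data. With 1 fit of all follicle groups, with arrays centred on their median or with a filter at log2 over 4, 2 genes were lower. Leaving out 1 array gave 16 to 22 higher and 1 to 2 lower. Over all probe sets 2262 were higher without atretic replicate 4 and 1626 without replicate 5, each of which gave 16. Without rounded replicate 1, which gave 22, 3029 of all probe sets were higher. Centring subtracted 0.08 from every difference and moved the split over all probe sets from 2608 higher and 2331 lower to 1782 and 3596; in large follicles it subtracted 0.04 and moved 404 and 153 to 318 and 235. With the macrophage term 9 of 36 genes changed sign, among them, of the genes that had passed, ASAH1 (-0.14), CTSA (-0.17) and CTSS (-0.17); with the dimmest probe set CTSB did (-0.01); the cause was not tested.

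In large follicles, where 2 genes were higher, the number was 1 with 1 fit of all follicle groups, against columnar follicles alone, in analysis of variance without moderation and with centring. It was 0 against rounded follicles alone, at 2-fold, with the macrophage term and without the 2 arrays highest in CYP19A1. Leaving out 1 array gave 1 to 5, with 5 without rounded replicate 1.

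Of the 5 positive slopes, 0 were left with a replicate block, within the 10 small healthy arrays and within the 14 healthy arrays (where 8 of 36 had an unadjusted p under 0.05, beside 4.94% of all probe sets), 1 with CD14 and CSF1R as the markers, and 2 with the median of the markers. CD163, planned beside these markers, was not measured. Without follicle group in the model 22 slopes were positive and 1 negative, beside 17.1% and 14.3% of all probe sets. Leaving out 1 array gave 1 to 6. Over all probe sets the 94 positive and 12 negative slopes became 42 and 3 with the block. They became 0 and 0 within the 10 small healthy arrays and 4 and 0 within the 14 healthy arrays. With CD14 and CSF1R they were 44 and 2, and with the median of the markers 53 and 1.

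Replicate numbers did not pair the arrays: over 27 pairs with the same number the median correlation of deviations was 0.02, and 10 exceeded 0.1. Over 108 pairs with different numbers the median was -0.004, and 36 exceeded 0.1. With the replicate block 19 genes were higher and 1 lower in atretic follicles, where CTSA was lost (adjusted p = 0.0568), and 2 were higher in large ones, where ATP6V1H was lost (0.0782) and CTSL gained (0.0482). CTSL met the filter only through the large arrays, so no conclusion is drawn from that call. Columnar against rounded follicles had 0 calls under all alternatives run.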
